A study of Arabidopsis thaliana with 6 samples.

Results

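The transcriptome of wild-type (WT) cells sorted as quiescent center (QC) cells was described from the 3 WT libraries, of 6 in the series. The cells came from primary roots of 5-day-old *Arabidopsis thaliana* seedlings that carried the reporter *pWOX5:GFP* and were grown on diluted Murashige and Skoog medium under long days. Root cells were released from their walls, GFP-positive cells were sorted by flow cytometry, and RNA was amplified with a kit for very low input before sequencing. The *bravo-2* libraries were not used. The 37336 genes listed were ranked by their mean level over the 3 libraries and by the spread between them, both of which are values of one group, so no test was made. The reporter is driven by the *WOX5* promoter, which is most active in the QC and also in some vascular initials, so cells of that kind can pass the gate. Transcripts that mark other cell types were also present, and those of root hair and epidermis summed above those of the QC in every library (below). Such sums depend on which genes a list holds and do not compare numbers of cells. The labels number the libraries 1 to 3, give each title a code that they do not explain, and do not say which sowing or sort a library came from. The study's methods name the sorting as a batch factor that was corrected before its own tests, a correction that the deposited counts used here do not carry. Sort and library cannot be told apart among the 3 libraries, and their spread may be technical in part.

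The QC is a small group of rarely dividing cells at the centre of the root stem cell niche, and it keeps the adjoining initials undifferentiated. Its identity depends on the homeobox factor WOX5, on the PLETHORA (PLT) factors that follow the auxin maximum, and on the GRAS factor SCARECROW (SCR). BRAVO, a MYB factor, represses QC division. Endodermis, root hairs, root cap and vascular tissue derive from the surrounding initials, and their marker genes serve as a check on what else was collected.

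Levels are given in TPM, which divides the estimated count of a gene by its effective length and scales each library to the same total, so that genes can be compared per length. Spread is the standard deviation of log2(TPM + 1) over the 3 libraries, in log2 units, and was ranked among the 11766 genes with a mean of at least 10 TPM. The libraries held between 10990221 and 14425263 estimated counts. A total of 16450 genes reached 1 TPM in all 3 libraries, 20693 reached it in at least 1, and 12222 had no count in any. A count of 0 allows up to 3 counts, which is between 0.208 and 0.273 CPM (counts scaled to the library total), a limit that covers counting error only.

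Replicate 1 stood apart from the others. Over the 11766 genes, Pearson's r of log2 values was 0.80 between replicates 1 and 2, 0.82 between replicates 1 and 3, and 0.92 between replicates 2 and 3. Replicate 1 was the library furthest from the middle value for 61.0% of these genes. The libraries also depend on their scaling, since the median gene deviated from its own mean in replicate 1 by -0.14 on the TPM scale, by 0.06 with edgeR's TMM factors and by 0.13 with DESeq2 size factors. Directions of gene groups are therefore given under each scaling. For comparison, of all 11766 genes 35.2% were highest in replicate 1 on the TPM scale, 46.8% with TMM and 49.97% with DESeq2 factors, and 50.1%, 40.8% and 38.1% were lowest there.

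Promoters are shown for the groups of genes that moved together between the libraries. The first set is of ribosomal protein genes, a class of which nearly all members were lowest in replicate 1 (below). In each set, the 4 most abundant genes were taken whose window overlaps no other annotated gene, so that more abundant genes with an overlap were passed over. Each line gives the 250 bases before the annotated start, 5′ to 3′ on the strand of the gene, from RefSeq's TAIR10.1. Capitals mark the site II motif TGGGCC and the telo box AAACCCTAA on either strand, both of which are known from plant ribosomal protein promoters.
EMB2296 (chr2:7836817-7837066, plus strand): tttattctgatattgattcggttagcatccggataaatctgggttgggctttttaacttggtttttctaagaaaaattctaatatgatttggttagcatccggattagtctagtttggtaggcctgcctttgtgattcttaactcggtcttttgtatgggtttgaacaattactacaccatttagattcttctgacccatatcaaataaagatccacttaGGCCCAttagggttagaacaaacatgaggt
AT5G02960 (chr5:694516-694765, minus strand): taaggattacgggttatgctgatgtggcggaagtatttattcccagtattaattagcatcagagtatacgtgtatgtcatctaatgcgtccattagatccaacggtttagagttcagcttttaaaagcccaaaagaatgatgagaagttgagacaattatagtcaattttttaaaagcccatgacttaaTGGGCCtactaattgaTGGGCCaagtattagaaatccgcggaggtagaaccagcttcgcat
AT5G15200 (chr5:4936430-4936679, minus strand): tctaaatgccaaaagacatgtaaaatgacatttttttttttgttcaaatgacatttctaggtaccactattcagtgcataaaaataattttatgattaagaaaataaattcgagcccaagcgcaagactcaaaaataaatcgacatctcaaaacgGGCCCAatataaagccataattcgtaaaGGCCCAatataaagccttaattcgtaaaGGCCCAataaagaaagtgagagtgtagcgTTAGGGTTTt
emb2171 (chr3:1167000-1167249, plus strand): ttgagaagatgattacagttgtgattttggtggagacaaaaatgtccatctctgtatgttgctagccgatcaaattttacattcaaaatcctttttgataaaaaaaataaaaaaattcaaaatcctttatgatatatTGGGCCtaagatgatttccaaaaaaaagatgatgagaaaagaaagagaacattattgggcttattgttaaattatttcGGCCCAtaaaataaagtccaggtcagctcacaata

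The second set is of genes with very few counts in replicate 2 only, among them 2 of the endodermis. Here capitals mark the W-box cores TTGACC and TTGACT on either strand, which WRKY factors are known to bind.
CASP1 (chr2:15160800-15161049, minus strand): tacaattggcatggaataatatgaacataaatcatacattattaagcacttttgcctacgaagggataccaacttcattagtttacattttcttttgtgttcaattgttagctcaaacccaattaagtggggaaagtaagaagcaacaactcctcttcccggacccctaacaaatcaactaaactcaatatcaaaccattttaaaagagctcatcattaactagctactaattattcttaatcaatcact
PER64 (chr5:16852378-16852627, plus strand): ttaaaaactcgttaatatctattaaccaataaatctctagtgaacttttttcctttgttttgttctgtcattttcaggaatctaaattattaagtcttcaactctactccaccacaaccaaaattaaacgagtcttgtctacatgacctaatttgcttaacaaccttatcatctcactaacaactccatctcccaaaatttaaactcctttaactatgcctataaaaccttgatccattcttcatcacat
AT3G55230 (chr3:20471537-20471786, plus strand): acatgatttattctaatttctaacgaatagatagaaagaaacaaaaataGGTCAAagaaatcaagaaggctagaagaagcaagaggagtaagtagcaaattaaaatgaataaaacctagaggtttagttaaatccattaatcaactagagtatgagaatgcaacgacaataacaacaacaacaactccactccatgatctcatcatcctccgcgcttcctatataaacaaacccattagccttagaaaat
AT5G66390 (chr5:26517600-26517849, minus strand): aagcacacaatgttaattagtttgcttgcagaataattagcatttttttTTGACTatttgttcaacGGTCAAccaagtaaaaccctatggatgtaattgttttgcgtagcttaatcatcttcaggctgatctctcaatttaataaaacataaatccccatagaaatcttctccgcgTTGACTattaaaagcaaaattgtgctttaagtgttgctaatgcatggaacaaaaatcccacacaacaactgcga

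The 4 ribosomal windows hold between 1 and 4 matches of either motif each, a site II motif in every one, and that of AT5G15200 also holds a telo box next to its start. They are richer in site II than the class, since the motif stood in 16 of the 25 ribosomal protein promoters among the 100 most abundant genes and in 48.2% of all 313. Among the 4 windows of the second set, *CASP1* and *PER64* have no W-box core, AT3G55230 has 1 and AT5G66390 has 3. A match is a run of letters and no evidence of binding.

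*WOX5* itself (AT3G11260, chr3:3527280-3528440, 2 exons) was at 106 TPM in replicate 1, 435 TPM in replicate 2 and 550.5 TPM in replicate 3, a mean of 364 ± 230.3 TPM (SD, n = 3) that ranked it 461 of all genes. Replicate 1 was thus far below the other libraries in the transcript whose promoter served for the sort. In bulk RNA, fewer cells of a type and less RNA per cell cannot be told apart. *WOX5* counts were whole in each library (983, 3096 and 5104), so RSEM divided no read between it and another gene.

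The other genes of the QC and stem cell niche list went the same way. Of 22 members, 20 were at 1 TPM or more in all libraries and 17 had a mean of at least 10 TPM. All 17 were lowest in replicate 1 on the TPM and TMM scales, and 16 were with DESeq2 factors, while 50.1% of all 11766 genes were lowest there on the TPM scale. The summed level of the list was 1020 TPM, 3456 TPM and 2890 TPM in replicates 1, 2 and 3.

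The auxin efflux carrier gene *PIN4* was the most abundant member, at 204 TPM, 734 TPM and 496 TPM in replicates 1 to 3. *PLT1*, which sets stem cell identity along the auxin gradient, was at 171 TPM, 604 TPM and 445 TPM, and its relatives *PLT2*, *PLT3* and *BBM* had the same order of libraries. *SCR* was at 45.0 TPM, 136 TPM and 164 TPM. For all of these genes replicates 2 and 3 were within 1.5-fold of each other, and replicate 1 was the one that differed. *BRAVO* (AT5G17800) was at 13.3 TPM, 47.0 TPM and 67.2 TPM, with a spread of 1.19, close to that of *WOX5* (1.28).

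Not every gene of the list was at a high level. The MADS-box gene *AGL42*, whose reporter marks the QC, was at 2.96 TPM, 10.9 TPM and 13.3 TPM. *SHR*, which is transcribed in the stele and whose protein moves outward, stayed between 2.13 TPM and 3.71 TPM. *ERF115*, an activator of QC division, and *TEL2* had no count in any library, which allows up to 0.273 CPM in replicate 2, the shallowest.

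Markers of other cell types were present beside those of the QC. In the root hair and epidermis list, 12 of 13 genes had a mean of at least 10 TPM. The list summed to 6917 TPM, 4462 TPM and 6433 TPM, more than the QC list in every library. The lists hold different genes, with a median mean level of 261 TPM over these 13 and 58.8 TPM over the 22 of the QC list. Their sums therefore do not compare numbers of cells. *PRP3*, a cell wall protein gene of root hairs, was at 1827 TPM, 1170 TPM and 1570 TPM and ranked 36 of all genes. *EXPA18*, a root hair expansin, was at 1486 TPM, 1077 TPM and 1630 TPM, and the peroxidase gene *RHS19* at 1158 TPM, 760.0 TPM and 1180 TPM. Replicate 2 was lowest for 10 of the 12 genes on the TPM scale and for 11 with TMM or DESeq2 factors. Of all 11766 genes, 19.9% were lowest there on the TPM scale, 26.7% with TMM and 29.9% with DESeq2 factors. On the TPM scale, the median spread of the list, 0.41, lay below the median of all genes (0.50) and that of the QC genes (0.95). This contrast depends on the scaling. The median deviation of the list in replicate 1 was 0.32 on the TPM scale, 0.53 with TMM and 0.60 with DESeq2 factors. That of the QC list was -1.06, -0.85 and -0.78. The spread of the lists was not taken on the other scales.

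The endodermis list showed the widest differences. The CASP proteins build the membrane platform of the Casparian strip, and the peroxidase PER64 polymerises its lignin. *CASP1* was at 170.4 TPM in replicate 1, 1.66 TPM in replicate 2 and 156 TPM in replicate 3, and *PER64* at 93.5 TPM, 1.298 TPM and 118 TPM. *MYB36*, the factor that switches on the CASP genes, was at 15.1 TPM, 8.01 TPM and 16.3 TPM. All 5 members with a mean of at least 10 TPM were lowest in replicate 2 under each of the 3 scalings, beside 19.9%, 26.7% and 29.9% of all genes. The list of 9 summed to 380 TPM, 19.97 TPM and 426 TPM.

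Conducting and green tissue markers were near the floor. No gene of the phloem list (4 genes) or the photosynthetic list (7 genes) reached a mean of 10 TPM, and in the xylem list (8 genes) only *ACL5* did, with *VND6* at 0 counts in all libraries. The phloem list summed to 8.43 TPM, 1.299 TPM and 2.90 TPM, and *APL* and *SUC2* had no count in replicate 2. Stele and pericycle genes were a little higher, with a sum of 156 TPM, 240 TPM and 160 TPM over 8 genes, led by the cytokinin receptor gene *AHK4*. Root cap and columella genes had no common direction. *CEL5* was at 327 TPM, 71.1 TPM and 177 TPM, whereas *SMB*, which drives root cap maturation, was at 24.8 TPM, 58.5 TPM and 18.1 TPM. The part of cells outside the QC in the levels below was not tested.

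**Figure D1:**
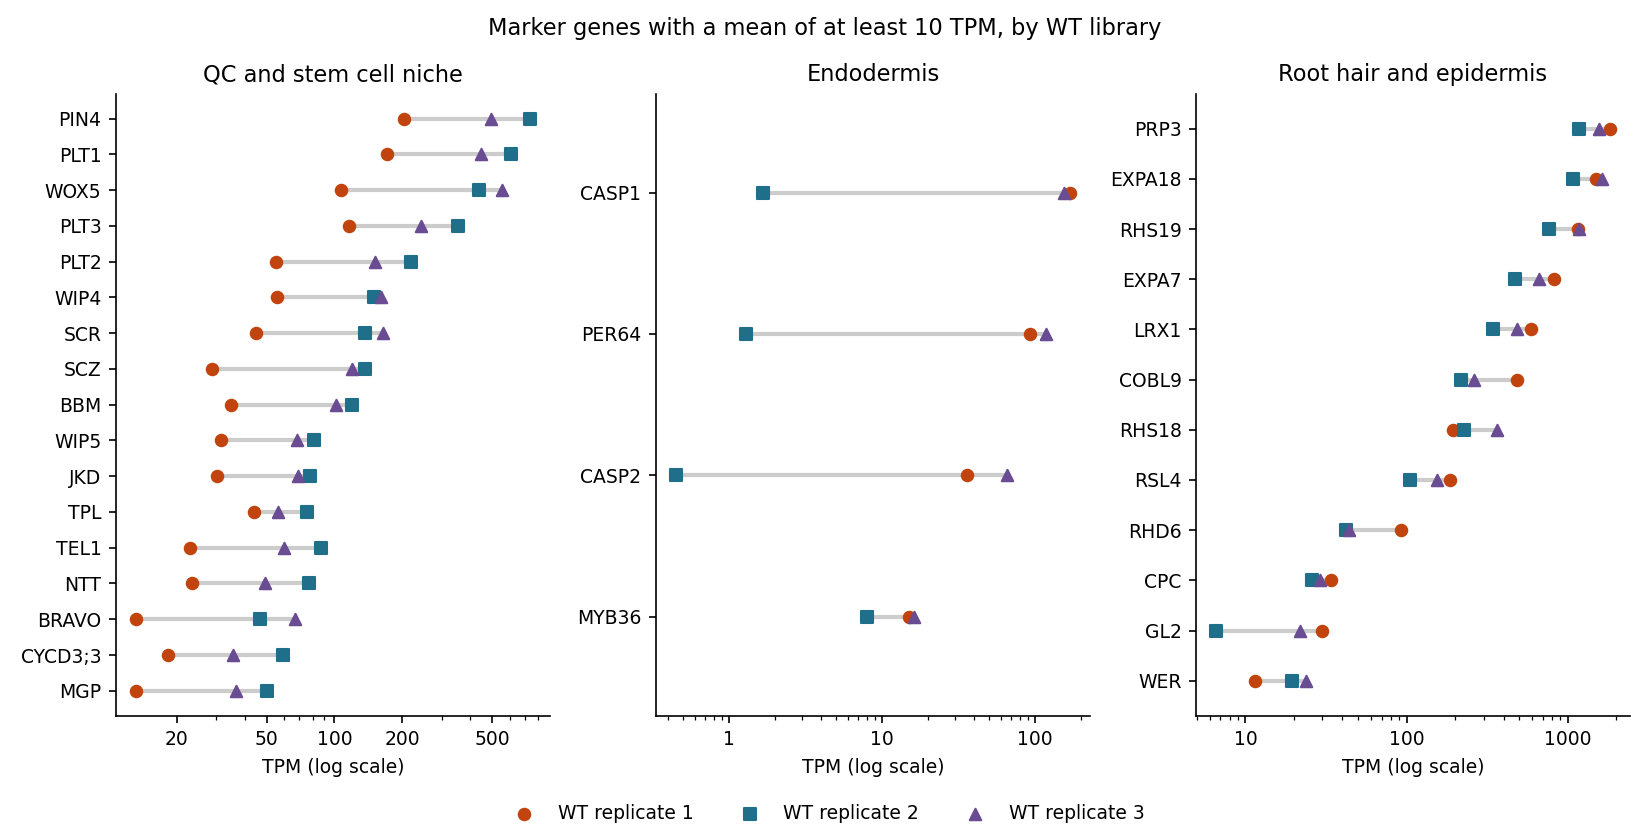
TPM of marker genes with a mean of at least 10 TPM in WT replicates 1 (circles), 2 (squares) and 3 (triangles), on log axes, for 3 marker lists; grey bars join the lowest and the highest library. Replicate 1 is lowest for all 17 QC and stem cell niche genes on this scale (16 with DESeq2 factors), and replicate 2 is lowest for all 4 endodermis genes drawn. Of all 11766 genes, 50.1% are lowest in replicate 1 and 19.9% in replicate 2 on this scale.

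The RNA of the sorted cells was spread over many genes. The 20 most abundant genes held 7.55%, 5.33% and 6.16% of the TPM of replicates 1, 2 and 3, and it took 799, 1147 and 886 genes to reach 50% of it. A level of at least 1000 TPM on average was reached by 94 genes. The 100 most abundant genes of replicates 2 and 3 had 91 in common, whereas replicate 1 shared 46 with replicate 2 and 45 with replicate 3. When the mean was taken without replicate 1, 79 of the 100 genes were kept.

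Genes of protein synthesis and energy supply led the ranking. AT5G60390, which encodes the translation elongation factor EF1A (chr5:24288596-24291020, 3 exons), was at 3724 TPM, 6125 TPM and 6834 TPM. Its counts were fractional, since RSEM divides reads among near-identical EF1A copies, and the share that belongs to this copy is uncertain. *AAC1* (AT3G08580), the mitochondrial ADP/ATP carrier, was second at 6587 TPM, 3834 TPM and 4611 TPM. The mitochondrial gene ATMG00020 came next at 3400 TPM, 3550 TPM and 5940 TPM, while organelle genes as a whole held between 0.573% and 1.00% of the TPM.

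Cell wall and surface proteins formed the next group. *AGP2*, an arabinogalactan protein gene, was at 4154 TPM, 2516 TPM and 3417 TPM, and *HRGP1*, a hydroxyproline-rich glycoprotein gene with fractional counts, at 4091 TPM, 2094 TPM and 2705 TPM. The extensin-like gene AT3G28550 was at 4292 TPM in replicate 1 and at 1797 TPM and 1783 TPM in replicates 2 and 3, again from fractional counts. The lipid-transfer protein gene AT5G46890 reached 5874 TPM, 2643 TPM and 3209 TPM, and its relatives AT4G12510 and AT5G46900 were also among the 25. All of these were highest in replicate 1.

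Metabolic and detoxifying enzymes were mixed in spread. *HOG1*, whose product hydrolyses S-adenosyl-homocysteine, was at 2275 TPM, 2870 TPM and 2541 TPM (spread 0.17), and the glutathione S-transferase gene *GSTU19* at 2461 TPM, 2428 TPM and 2009 TPM (spread 0.16). *GSTF9*, of the same enzyme family, was at 834 TPM in replicate 1 but 3022 TPM and 3371 TPM in replicates 2 and 3. These 2 genes of one family thus had the lowest spread of the 25 and the highest (1.12). The methionine synthase gene *ATMS1* was at 3669 TPM, 3342 TPM and 2413 TPM (spread 0.32), while *GSTF8* (0.56), *PPa5* (0.57) and the peroxidase gene AT5G17820 (0.62) were above the median of all genes.

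Of the 25, 18 were highest and 7 lowest in replicate 1 on the TPM scale, against 19 and 5 with TMM or DESeq2 factors. The 3 ribosomal protein genes among them, *EMB2296*, AT3G06700 and AT5G02960, were all lowest there on the TPM scale. *EMB2296* was at 961 TPM, 2209 TPM and 2817 TPM. *ANNAT1* (annexin), the aquaporin gene *PIP3*, *PPa5* (annotated as pyrophosphorylase 5) and AT5G17820 were highest there. *ANNAT1* was at 2815 TPM, 1274 TPM and 1542 TPM. Over the 100 most abundant genes the median spread was 0.56, and 39 lay below the median of all genes, although their counting error alone would give only 0.014.

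**Figure D2:**
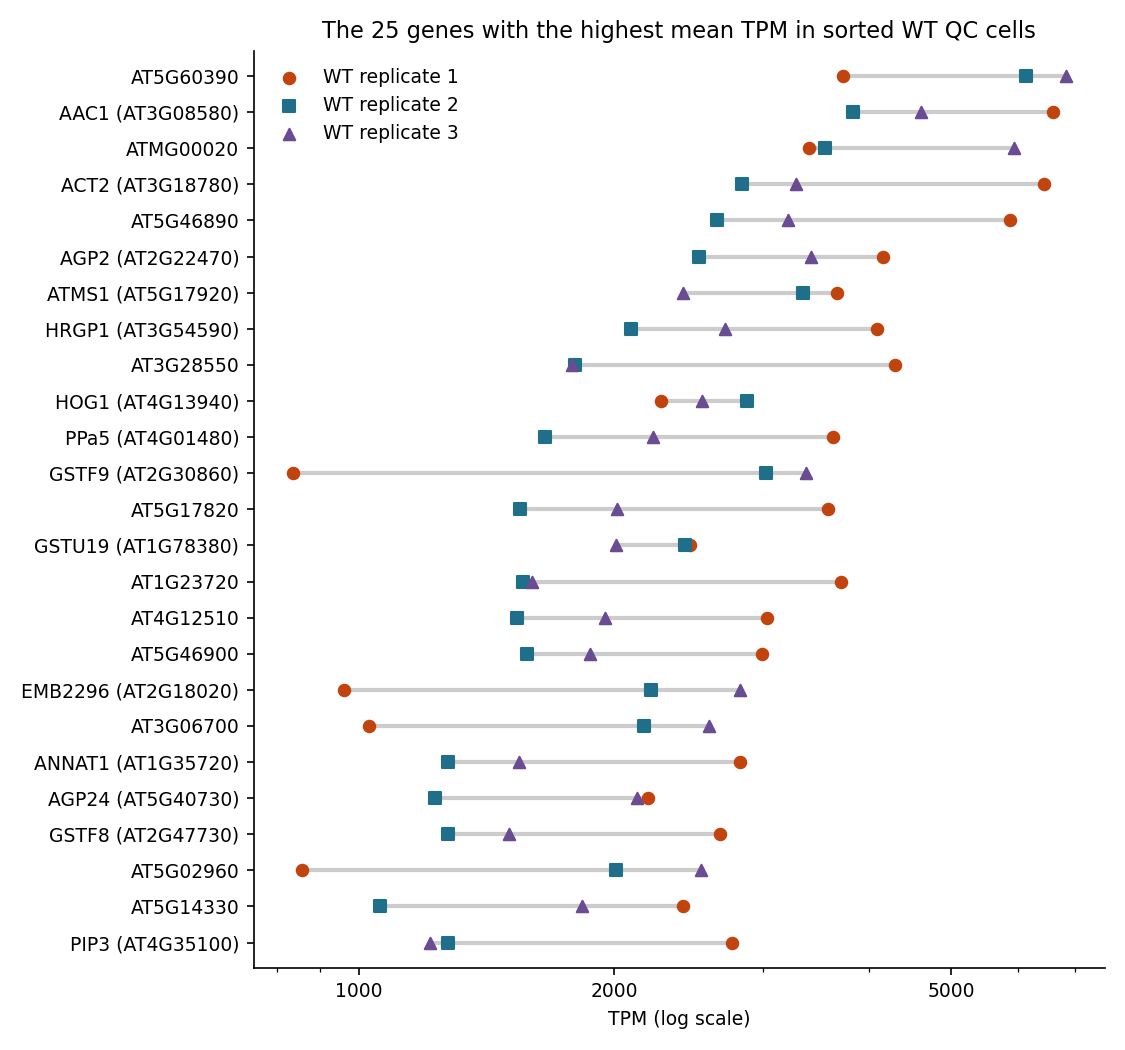
TPM of the 25 genes with the highest mean, in order from the top, in WT replicates 1 (circles), 2 (squares) and 3 (triangles) on a log axis; grey bars join the lowest and the highest library. Replicate 1 is highest for 18 genes and lowest for 7, and *HOG1* and *GSTU19* have the shortest bars.

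Gene classes, drawn by annotated product, showed the same split. Ribosomal proteins without those named as organellar (370 genes) held 5.47%, 12.1% and 14.8% of the TPM, more than any other class in each library. Of their 313 genes with a mean of at least 10 TPM, 298 were lowest in replicate 1 on the TPM scale, 287 with TMM and 284 with DESeq2 factors. Their median deviation in replicate 1 was -0.88 and their median spread 0.78, and 25 of them were among the 100 most abundant genes. Many are members of multigene families and share reads. Short genes were also lower there, with a median deviation in replicate 1 of -0.27 for the fifth of all genes with the shortest effective length, or -0.18 without the 215 ribosomal protein genes among them, and -0.09 for the longest. The part of gene length in the ribosomal difference was not tested.

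Classes of the cell surface and the vacuole had their highest share in replicate 1. Arabinogalactan proteins and extensins held 3.89%, 2.32% and 2.65% of the TPM, lipid transfer proteins 1.84%, 0.880% and 1.09%, and class III peroxidases, which cross-link cell walls, 1.52%, 0.684% and 0.827%. The number of genes highest in replicate 1 was 54 of 93 for arabinogalactan proteins and extensins on the TPM scale (63 with TMM, 65 with DESeq2 factors). It was 17 of 27 for lipid transfer proteins (21 and 22) and 19 of 31 for peroxidases (23 and 25). Aquaporins held 1.60%, 0.833% and 0.875%, with 16 of 20 genes highest in replicate 1 on the TPM scale and 19 of 20 with the other factors, beside the 35.2%, 46.8% and 49.97% of all genes. Of 14 genes of the V-type ATPase, the proton pump of the vacuole, 13 were highest there on the TPM scale and all 14 with TMM or DESeq2 factors. With TMM or DESeq2 factors the relative level of replicate 1 is raised further for all genes alike. *VHA-C3* was at 1505 TPM, 787 TPM and 818 TPM.

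Translation elongation factors (0.738%, 1.16% and 1.26%), histones (0.294%, 0.556% and 0.440%) and heat shock proteins (0.257%, 0.408% and 0.374%) had their lowest summed share in replicate 1. Genes lowest there on the TPM, TMM and DESeq2 scales were 34, 26 and 24 of 47 elongation factors. They were 29, 23 and 23 of 33 histones and 28, 26 and 25 of 38 heat shock proteins, beside 50.1%, 40.8% and 38.1% of all genes. Actins (0.869%, 0.466% and 0.499%) had their highest summed share there. Their genes were split, with 3 of 6 highest and 3 lowest in replicate 1 on the TPM scale. A few classes differed little in share. Glutathione S-transferases held 1.19%, 1.08% and 1.03% of the TPM and protein kinases 1.89%, 1.89% and 1.64%. Genes of the 26S proteasome, which degrades ubiquitin-tagged proteins, had the lowest median spread of the classes (0.25), and 30 of 37 lay below the median of all genes. Their direction followed the scaling, since 24 of 37 were lowest in replicate 1 on the TPM scale, but 15 with TMM and 12 with DESeq2 factors. The proteasome gene *PAG1* was at 230 TPM, 231.5 TPM and 238 TPM.

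**Figure D3:**
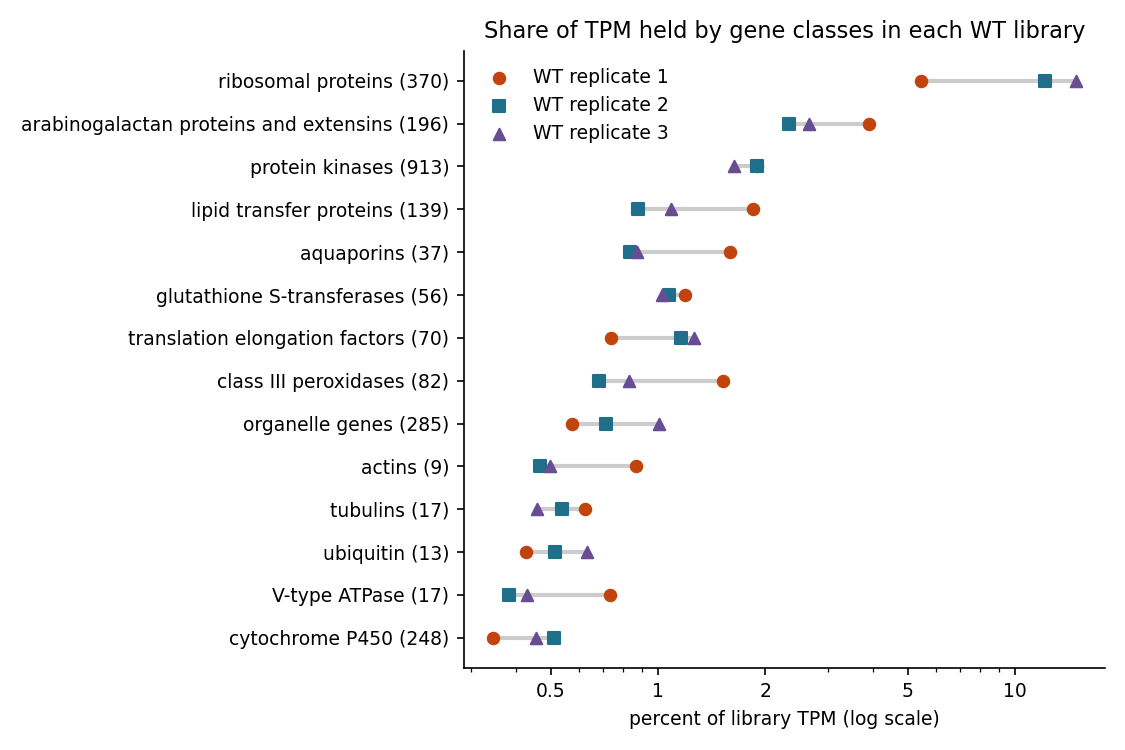
Percent of the TPM of WT replicates 1 (circles), 2 (squares) and 3 (triangles) held by 14 gene classes, on a log axis, with the number of genes in each class in brackets; grey bars join the lowest and the highest library. Ribosomal proteins hold 5.47% in replicate 1 against 12.1% and 14.8% in replicates 2 and 3, while arabinogalactan proteins and extensins hold most in replicate 1.

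Spread was wider than counting would give for nearly all genes. The median spread was 0.50, against a median of 0.067 for counting error alone, and 98.6% of the genes lay above their own counting error. A spread of at least 1 was found for 924 genes (7.85%) and one under 0.1 for 340 genes (2.89%). With replicate 1 left out, the median fell to 0.23 and the first count to 270 genes. The common dispersion, edgeR's estimate of the squared coefficient of variation between libraries beyond counting, was 0.201, and 0.0945 without replicate 1.

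The lowest spreads belonged to genes of varied function. *G1* (AT3G51790, chr3:19209515-19210849), a transmembrane protein gene, was at 18.7 TPM, 18.8 TPM and 18.7 TPM, with a spread of 0.0050. *ERD4*, an early gene of the dehydration response, was at 241 TPM, 239.7 TPM and 242.6 TPM, and *PAE2*, a subunit of the 20S proteasome core, at 130.1 TPM, 131.4 TPM and 131.5 TPM. *MEE4*, which encodes a GRIM-19 protein, was at 140.3 TPM, 141 TPM and 142.6 TPM. The 20 lowest also held *RRC1* (RNA recognition motif protein), *CRK* (a subunit of the ARP2/3 complex), *VPS35A* (vacuolar sorting), *EXL2*, *KIS* (tubulin folding) and *ORA47*. *ORA47* is an ERF/AP2 factor gene of the wound and touch list, and was at 79.8 TPM, 81.3 TPM and 81.0 TPM. All 100 genes of lowest spread encode proteins, their mean TPM ranged between 10.3 and 1369, and 81 had a spread below their own counting error.

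This ranking rests on the scaling. None of the 100 genes was among the 100 of lowest spread with TMM or with DESeq2 factors. Their spread was between 0.005 and 0.055 on the TPM scale, between 0.13 and 0.24 with TMM and between 0.19 and 0.30 with DESeq2 factors, at most at percentile 22.5 of all genes on that last scale. No gene had a spread under 0.1 on all 3 scales, and 362 had one under 0.2. By the largest of the 3 values, chosen after the data were seen, the steadiest were AT5G65575 (22.9 TPM, 27.1 TPM and 25.6 TPM, largest spread 0.12) and AT2G17020 (18.1 TPM, 21.2 TPM and 20.9 TPM, 0.12). AT5G65575, annotated as other RNA, had only 137, 124 and 149.24 counts, the last of them fractional. Counts this low leave its rank open to counting error. The adenosine kinase gene *ADK1* (218 TPM, 254 TPM and 252 TPM, 0.13) and the proteasome gene *PAE1* (92.96 TPM, 109 TPM and 106 TPM, 0.13) were also among the first 25.

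Genes in common use as qPCR references differed widely. Of 21, 18 had a mean of at least 10 TPM, and 12 of these lay below the median spread of all genes on the TPM scale, 12 with TMM and 10 with DESeq2 factors. *RHIP1* (AT4G26410) was at 104 TPM, 109 TPM and 110 TPM, a spread of 0.039 that was 0.15 with TMM and 0.21 with DESeq2 factors. *YLS8*, a splicing factor gene, was at 270.1 TPM, 281 TPM and 289 TPM, with spreads of 0.048, 0.15 and 0.21. *ACT7* was at 552 TPM, 814 TPM and 651 TPM, and its spread was 0.28 on the TPM scale but 0.099 with DESeq2 factors. *ACT2*, the fourth most abundant gene, was at 6430 TPM, 2831 TPM and 3283 TPM, with a spread of 0.63 or more on each scale, from fractional counts. *TUB6* (0.77), *UBQ5* (0.75) and *CBP20* (0.71) had the next highest spreads on the TPM scale after the F-box gene AT5G15710 (0.79).

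**Figure D4:**
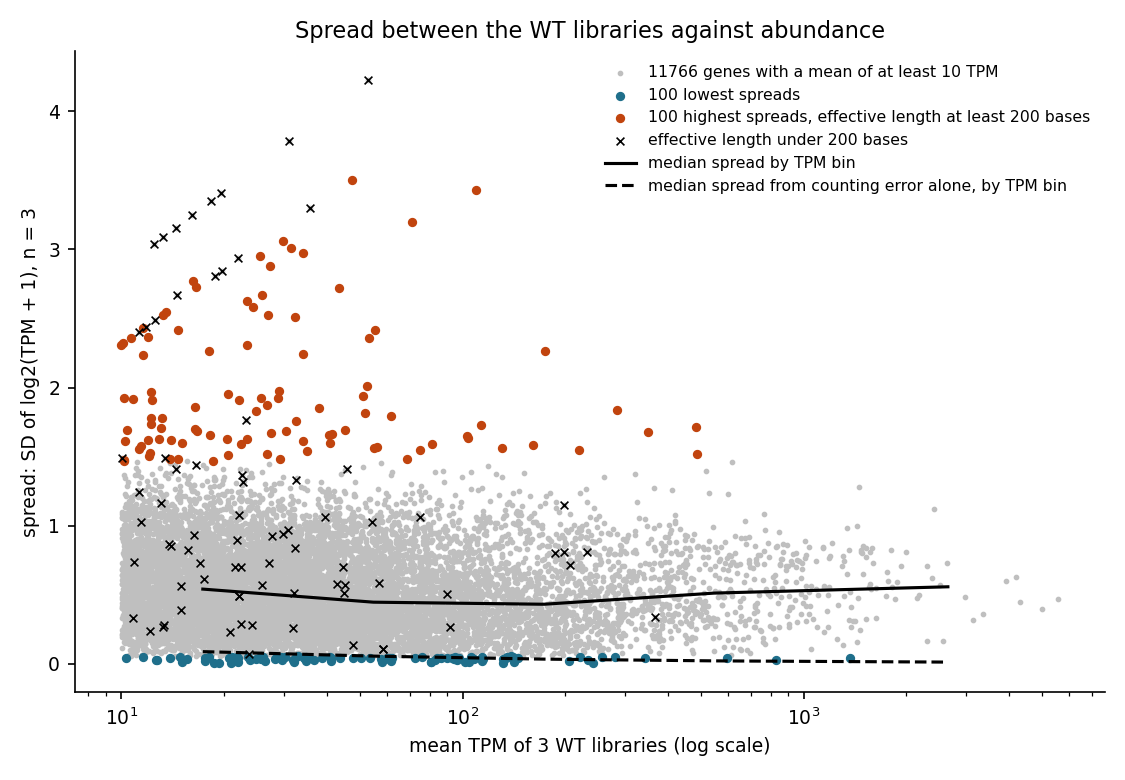
Spread (SD of log2(TPM + 1) over 3 WT libraries) against mean TPM on a log axis for 11766 genes (grey); blue points are the 100 lowest spreads, red points the 100 highest among genes with an effective length of at least 200 bases, and crosses the genes shorter than that. The solid line of median spread lies near 0.50 at all levels, above the dashed line expected from counting alone, and some of the crosses have the highest spreads.

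The highest spreads fell into 2 kinds. Of the 25 highest, 13 belonged to genes with an effective length between 1.59 and 33.1 bases, such as *U6.3* and several small nucleolar RNAs. Their highest count in any library was 11.5, and TPM divides such counts by very short lengths, so their ranks rest on a few reads. A minimum effective length of 200 bases, set after the data were seen, was used for what follows. It left 11688 genes and kept 83 of the 100 highest spreads.

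The other 12 were protein-coding genes that were high in some libraries and had very low estimated counts in others. Where counts were fractional, a low count is of reads as RSEM divided them and can miss reads given to a similar gene. The endodermal genes *CASP1*, *PER64* and *CASP2* were among them, and so was the peroxidase gene AT5G66390 (61.0 TPM, 1.49 TPM and 67.5 TPM). *BGLU34*, a beta-glucosidase gene of the myrosinase group, was at 93.7 TPM and 48.5 TPM in replicates 1 and 2 with 1 count in replicate 3, and its neighbour in the family, *BGLU35*, at 58.5 TPM and 18.1 TPM with 2 counts in replicate 3. The counts of both were fractional, so reads were divided between similar genes. *SAE1B* (AT5G50580; 17.8 TPM, 63.9 TPM and 0.311 TPM) also had fractional counts, and its copy AT5G50680 was at 12.5 TPM, 48.5 TPM and 92.4 TPM. AT5G40590, which encodes a C1 domain protein, was at 73.5 TPM in replicate 1 and at 2.36 TPM and 1.72 TPM in replicates 2 and 3.

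Genes were next grouped by the library in which they differed, with a TPM + 1 at least 8-fold above or below both others. The pattern of a low replicate 2 had 13 of the 11688 genes, a low replicate 3 had 11 and a low replicate 1 had 6. High values in replicate 1 were found for 5 genes, in replicate 3 for 2 and in replicate 2 for 0. Of the 11 genes low in replicate 3, 9 had fractional counts, beside 2350 of all 11766 genes with a mean of at least 10 TPM. These groups were formed on the values and are given as a description.

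The 13 genes that were low in replicate 2 included *CASP1*, *CASP2* and *PER64* of the endodermis list. AT3G55230, annotated as dirigent-like, was at 72.9 TPM, 3.53 TPM and 89.2 TPM, and *UCC1*, a copper protein of the uclacyanin family, at 80.6 TPM, 3.67 TPM and 75.6 TPM. Dirigent and uclacyanin proteins are known from lignin deposition at the Casparian strip. The peroxidase gene AT5G66390 and 2 genes annotated as Pollen Ole e 1 and extensin family, AT4G17215 and AT2G40113, followed the same course. AT4G17215 was at 30.4 TPM, 0.671 TPM and 41.9 TPM. In replicates 1 and 3 the levels of these genes lay close to each other beside the gap to replicate 2.

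Replicate 1 had the highest levels of genes of varied roles. The retroelement-derived *SADHU3-2* was at 462.5 TPM, 31.1 TPM and 28.3 TPM, and *WRKY72*, a factor known from defence, at 91.9 TPM, 5.13 TPM and 5.45 TPM. The phosphate transporter gene *PHT1;4* was at 95.1 TPM, 9.54 TPM and 9.33 TPM. For these 3 genes replicates 2 and 3 were nearly equal, whereas the chitinase gene AT2G43590, also high in replicate 1, was at 73.1 TPM, 6.08 TPM and 1.42 TPM. Among genes that were low in replicate 1, the pentatricopeptide repeat gene AT3G46870 was at 0.924 TPM, 14.9 TPM and 21.2 TPM. In replicate 3, *TOM7-2*, for a subunit of the mitochondrial import pore, was at 74.4 TPM, against 5.12 TPM and 7.27 TPM in replicates 1 and 2.

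Stress genes were examined because the cells were released by wall digestion before the sort. In the wound and touch list, all 17 genes were at 1 TPM or more in each library, and the list summed to 2907 TPM, 1935 TPM and 1819 TPM. Of 15 genes with a mean of at least 10 TPM, 11 were highest in replicate 1 on the TPM scale and all 15 with TMM or DESeq2 factors, beside 35.2%, 46.8% and 49.97% of all genes. *JAZ1*, a jasmonate repressor gene, was at 897 TPM, 707 TPM and 652 TPM, and *ZAT12* at 499 TPM, 275 TPM and 317 TPM. The calmodulin-like gene *TCH3* had the widest spread of the list (1.12), at 153 TPM, 67.0 TPM and 31.6 TPM. The summed level thus ran opposite to the QC list, whose lowest library was replicate 1, and the part of the digestion in either was not tested.

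Heat shock genes were low, with 4 of 9 at a mean of at least 10 TPM. All 4 were highest in replicate 2 under each scaling, beside 5103 (TPM), 3825 (TMM) and 3343 (DESeq2) of all 11766 genes. *HSP70* (AT3G12580) was at 54.0 TPM, 154 TPM and 108 TPM. Genes of the cell cycle were low as well, at a sum of 140 TPM, 304 TPM and 282 TPM over 9 genes. Of 8 with a mean of at least 10 TPM, 7 were lowest in replicate 1 on the TPM and TMM scales and 6 with DESeq2 factors. The shares of all genes lowest there were 50.1% on the TPM scale, 40.8% with TMM and 38.1% with DESeq2 factors. The mitotic cyclin gene *CYCB1;1* was at 5.31 TPM, 15.8 TPM and 16.6 TPM. *CDKB1;1*, a kinase gene of the G2 to M transition, had its highest level in replicate 3 (10.14 TPM, 19.6 TPM and 49.2 TPM).

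Promoters were compared between the groups by the share with a motif, in the 250 bases before the start for the motifs on either strand. The site II motif TGGGCC stood in 48.2% of 313 ribosomal protein promoters and 13.7% of all 27443 protein-coding promoters. Its share was 26.8% among the 97 protein-coding promoters of the 100 most abundant genes, and 13.9% when the ribosomal protein genes were left out of them. The telo box AAACCCTAA stood in 6.39% of the ribosomal promoters and 2.61% of all. The 100 genes of highest spread with an effective length of at least 200 bases gave 96 protein-coding promoters. Of these, 30.2% had TATAAA or TATATA on the plus strand between 50 and 20 bases before the start. The share was 8% for the 100 of lowest spread and 13.9% for all. The W-box core TTGACC stood in 7 of the 13 promoters of the genes low in replicate 2 and TTGACT in 6, beside 12.2% and 19.1% of all promoters. The G-box CACGTG stood in 11.3% of the most abundant, 11% of the lowest and 2.08% of the highest spreads, and in 6.49% of all. Of the 11535 promoters of genes with a mean of at least 10 TPM, 18.9% had site II and 2.18% the telo box. TTGACC stood in 12.6% of these 11535, TTGACT in 18.6%, the G-box in 7.8% and TATAAA or TATATA in 11.8%.

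**Figure D5:**
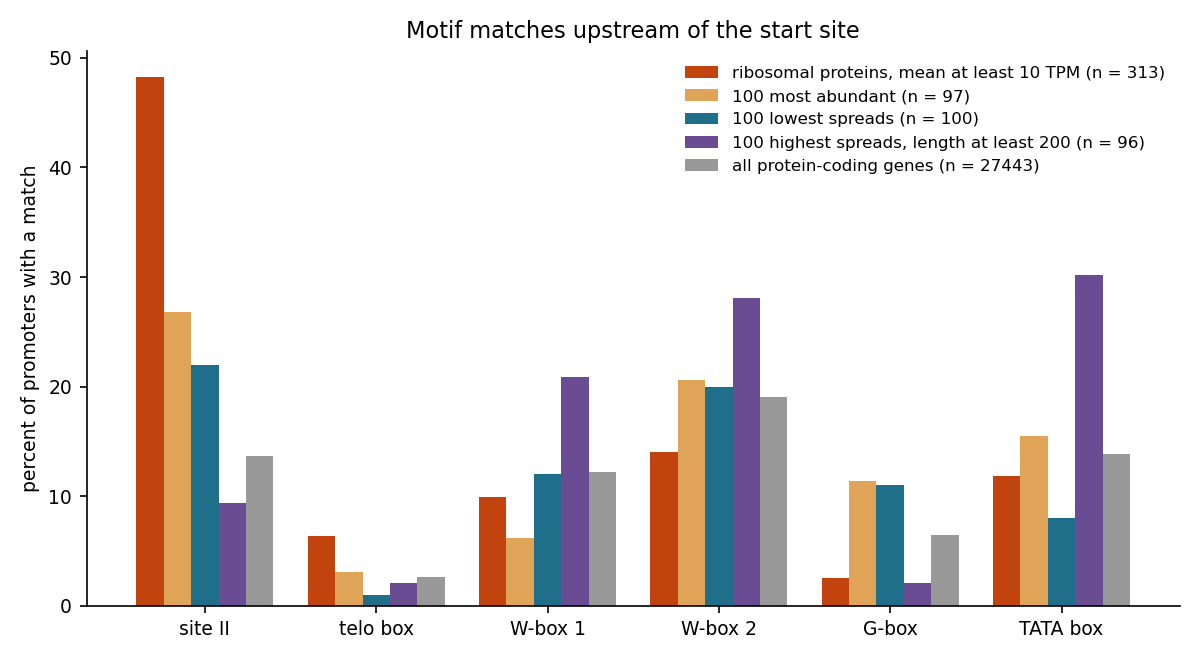
Percent of promoters with a match (bars, from 0) for the site II motif, the telo box, the W-box cores TTGACC (W-box 1) and TTGACT (W-box 2), the G-box and the TATA box, in 5 groups of protein-coding genes. The site II bar of the ribosomal proteins stands at 48.2% against 13.7% for all genes, and the TATA box bar of the highest spreads at 30.2% against 13.9%.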

How the data were processed

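Per the labels and the study's methods, the authors trimmed reads with cutadapt, aligned them with STAR to the TAIR10 genome and quantified Araport11 transcripts with RSEM. Versions are not given in the sources used here. The deposited tables hold estimated counts (RSEM's expected count, not normalized), effective lengths in bases and TPM. RSEM divides reads among genes they match equally well, and 82.6% of counts above 0 were whole within 0.005. TPM was recomputed from the deposited estimated counts and effective lengths over genes with a length above 0, and differed from the deposited TPM by at most 0.632 TPM.

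Genes with a mean of at least 10 TPM were ranked by the SD of log2(TPM + 1). Named are the 25 highest means, the 20 lowest and 25 highest spreads, and members of the lists and classes. Genes outside this rule were named after their values were seen, such as those grouped by library. Members and lists were chosen with earlier results of these data known. Counting error was derived from the counts by the delta method. The dispersion was estimated by edgeR on counts rounded to whole numbers, where the mean reached 4 CPM. Positions, products, symbols and promoters came from RefSeq's TAIR10.1, which held 37051 of 37336 identifiers, and the other 285 are organelle genes. Whether counting used the strand is not given in the sources used here, so overlapping genes are uncertain. Alternatives were TMM and DESeq2 factors, other filters and pseudocounts, and leaving out each library. The minimum effective length, the length check without ribosomal proteins, the directions under other scalings and the 8-fold patterns were added after seeing the data. The code was tested on simulated data. Software was R 4.3.3 with edgeR 4.0.16 and DESeq2 1.42.0 and, in Python 3.11.15, numpy 2.4.6, pandas 2.3.3, matplotlib 3.10.9, scipy 1.17.1. The values of 1 gene are not reported here.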

Additional observations from a re-analysis of the deposited data

How the results depend on the processing

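No paired analysis was possible because a single group was described and no result comes from a test. Of 94 values over 15 alternatives, 64 stayed close to those reported. For counts and shared genes this meant within 1.5 times. The share of TPM was judged by the SD between libraries. The median spread and the dispersion were judged by the SD of their values with 1 library left out in turn. Those left-out values were thus judged by an error made from themselves. The share outlying in replicate 1 was judged by a 95% binomial (Wilson) interval. Without genes of fractional counts, the 20 most abundant genes held 4.42% of TPM, 53 of the 100 most abundant were left, and replicate 1 was outlying for 61 of the 100 highest spreads instead of 45. For comparison, replicate 1 was outlying for 61.0% of all genes with a mean of at least 10 TPM. With a minimum mean of 1 TPM, of 50 TPM or none, a spread of at least 1 was found for 2293, 229 and 2369 genes, 48, 20 and 48 of the 100 most variable genes remained, and replicate 1 was outlying for 30, 83 and 30 of the 100. The 50 TPM filter kept 50 and no filter 22 of the 100 most stable genes, and TMM and DESeq2 factors kept 0 and 0. By the coefficient of variation 54 of the most variable remained, and replicate 1 was outlying for 63. The common dispersion was 0.342 over all genes with a count. The cause of these shifts was not tested beyond the genes each filter admits. Leaving out 1 library in turn gave a median spread between 0.23 and 0.54, between 270 and 2121 genes with a spread of at least 1, a dispersion between 0.0945 and 0.251, and between 11 and 14 of the most stable and 40 and 57 of the most variable genes. The lowest of each range was the value without replicate 1. Depth limits the lowest levels, where 3 counts correspond to between 0.208 and 0.273 CPM.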

Other observations

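Some abundant regulators of stress and development lie outside the groups described above. The NAC factor genes *ATAF2* (1717 TPM, 1141 TPM and 1208 TPM in WT replicates 1 to 3) and *NAC102* (1334 TPM, 995 TPM and 950.4 TPM) were the 2 transcription factor genes of the NAC class among the 100 most abundant genes, both with fractional counts. *ATAF1* was at 947 TPM, 784 TPM and 748 TPM, with a spread of 0.18. The WRKY class held 0.225%, 0.131% and 0.147% of TPM, with *WRKY6* at 299 TPM, 135 TPM and 209.9 TPM, and 19 of its 28 genes with a mean of at least 10 TPM were highest in replicate 1 on the TPM scale and 21 with TMM or DESeq2 factors (35.2%, 46.8% and 49.97% of all genes under the 3 scalings). *TT4*, the chalcone synthase gene of flavonoid synthesis, ranked 26 and was highest in replicate 2 (1458 TPM, 2465 TPM and 1300 TPM).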
